A study of Homo sapiens with 8 samples.

Results

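The immediate early response genes described here are 10 genes, namely FOS, FOSB, FOSL2, JUN, JUNB, JUND, EGR1, IER2, IER3 and ATF3. They were taken by their symbols from expression tables that list 17076 genes, and all 10 were found. Immediate early genes are switched on within minutes of a growth factor, stress or serum signal by transcription factors that are already in the cell, so their first transcription needs no new protein. FOS and JUN proteins are basic leucine zipper factors that pair with each other to form AP-1, which binds a short site in the promoters of growth, invasion and inflammation genes. The mRNAs of this class are short lived, and several carry AU-rich elements in their 3′UTR that recruit decay factors. UPF1, the protein that was perturbed, is an RNA helicase best known for nonsense-mediated mRNA decay.

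RNA-seq was performed on Huh7, an established line of human liver cancer cells, with 2 libraries in each of 4 groups. siControl cells received a control siRNA and siUPF1 cells an siRNA against UPF1, which is UPF1 depletion. MYC cells received a control vector for the MYC epitope tag and MYC-UPF1 cells a vector for tagged UPF1, which is UPF1 overexpression. The tag is not the MYC gene. The sources used here do not state whether the libraries of a group came from separate cultures, so p-values measure only the spread between these libraries, which may be technical. Each gene has 1 FPKM value per library, which is the number of fragments scaled to transcript length and to library size. Read depth could not be worked out from these values, since whole reads were not recoverable from the low ones. Between 11909 and 12340 genes were at 1 FPKM or more in each library, and no pair of libraries shared more than 2 identical values. Across genes, MYC 1 was most like MYC-UPF1 2 (r = 0.9977) and MYC 2 most like MYC-UPF1 1 (r = 0.9974), each pair more alike than the libraries of a vector group (0.9961 in MYC and 0.9959 in MYC-UPF1).

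UPF1 itself followed the labels. It was at 44.5 and 47.4 FPKM in the siControl libraries and at 20.7 and 21.9 in the siUPF1 libraries, then at 45.2 and 57.4 in the MYC libraries and at 2835 and 2484 in the MYC-UPF1 libraries. Hepatocyte markers were abundant, led by AFP, the fetal serum protein, at a mean of 11800 FPKM over the 8 libraries. The summed level of the 12 hepatocyte markers lay between 21270 FPKM in siControl 1 and 24400 FPKM in MYC 1. Among them KRT18, an epithelial keratin, rose after depletion by 0.27 on the log2 scale in the test described below. After overexpression none of the 12 passed, where 0.619% of all genes rose and 0.807% fell. The KRT18 call was lost without siControl 1 (0.24), siControl 2 (0.30) or siUPF1 2 (0.16) and with the GC and length correction explained below (0.10), and its part in the results was not tested. Of the markers of other cell types, 2 of 5 fibroblast genes were in the tables, with a summed level of at most 1.41 FPKM, and COL1A1, DCN and LUM were not. For endothelial cells only PECAM1 of 4 genes was listed, at a mean of 0.634 FPKM, and for immune cells CD68 and CD14 of 4, with a sum of at most 6.51 FPKM. In bulk RNA of this kind, fewer cells that express a gene and less of its RNA per cell cannot be told apart.

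These genes have few exons. JUN, JUNB and JUND have a single exon, EGR1, IER2 and IER3 have 2, and FOS, FOSB, FOSL2 and ATF3 have 4, in the GENCODE transcripts on GRCh37. Among 11459 tested protein-coding genes the median was 9 exons, and 2.14% had 1 exon. The pentamer ATTTA, the core of AU-rich elements, was in the 3′UTR of 9 of the 10, all but IER2, against 72.7% of the 3′UTRs of these genes. The longer nonamer TTATTTATT was in 2 of the 10, against 9.21%. These 30-base windows hold it, in capitals, in the last exons of FOS and FOSL2, at chr14:75748763-75748792 and chr2:28639222-28639251 of GRCh37, plus strand:
FOS: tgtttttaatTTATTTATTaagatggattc
FOSL2: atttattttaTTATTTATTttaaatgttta

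RefSeq promoters on GRCh37, which run from 250 bases before to 50 bases after a start, were found for 9 of the 10 genes, with separate entries for a pair of ATF3 starts. IER3 had none. They were searched on both strands for short motifs, and a match is a description of the letters only. JUN and ATF3 shared the octamer TGACATCA, a site known to bind JUN and ATF family dimers, which 2.61% of 35116 RefSeq promoters hold. It lies at -67 from the start of JUN (chr1:59249768-59249797, minus strand) and at -123 from the more upstream ATF3 start (chr1:212738615-212738644, plus strand), which itself is at -43354 from the start of the GENCODE transcript. FOSL2 held the AP-1 heptamer TGANTCA, found in 7.71% of promoters, starting at base 5 of the transcript (chr2:28615718-28615747, plus strand). JUND held the cyclic AMP response element TGACGTCA, found in 1.85%, at -200 (chr19:18392614-18392643, minus strand). EGR1 held a pair of CArG boxes, the sites of serum response factor, which 1.29% of promoters hold at least once. They lie at -105 and -83 (chr5:137801053-137801082 and chr5:137801075-137801104, plus strand). The sequences below are shown because this class is known to respond to signals through such sites, with the motif in capitals:
JUN: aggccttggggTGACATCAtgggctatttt
ATF3: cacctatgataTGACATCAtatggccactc
FOSL2: tgccattgtagTGACTCAtctcgggcagag
JUND: ggccgcccccaTGACGTCAacccacaaggc
EGR1 at -105: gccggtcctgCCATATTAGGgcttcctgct
EGR1 at -83: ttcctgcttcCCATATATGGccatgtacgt

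The letters TATAAA of a TATA box were found close before the start in FOS, JUNB and FOSB, at -33, -31 and -30, and in the promoter of the more downstream ATF3 start at -230. By this search 11.5% of promoters hold those letters. The IER2 promoter held none of the motifs.

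Differences between groups were tested with limma on log2(FPKM + 1) over all genes with a mean of at least 0.5 FPKM in the libraries of the fit. This scale understates the change of genes with low FPKM, so the ratio of the group means is given as well. A gene is said to have risen or fallen, or to pass, where its limma p before adjustment was under 0.05, which is the threshold named in the study. Adjusted p-values are by the method of Benjamini and Hochberg over all genes tested. In a design of 2 libraries against 2 the smallest two-sided p of an exact permutation test is 0.333, so the p-values rest on the spread that limma shares across genes. FOSB, at 0.427 FPKM on average, lay under the minimum in every fit that had one. In the fit as planned 9 of the 10 genes were thus tested, and all 10 only with no FPKM minimum. Where base composition could matter, the value is also given after the dependence of each library on transcript GC content and length was removed by loess, called the GC and length correction below.

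**Figure D1:**
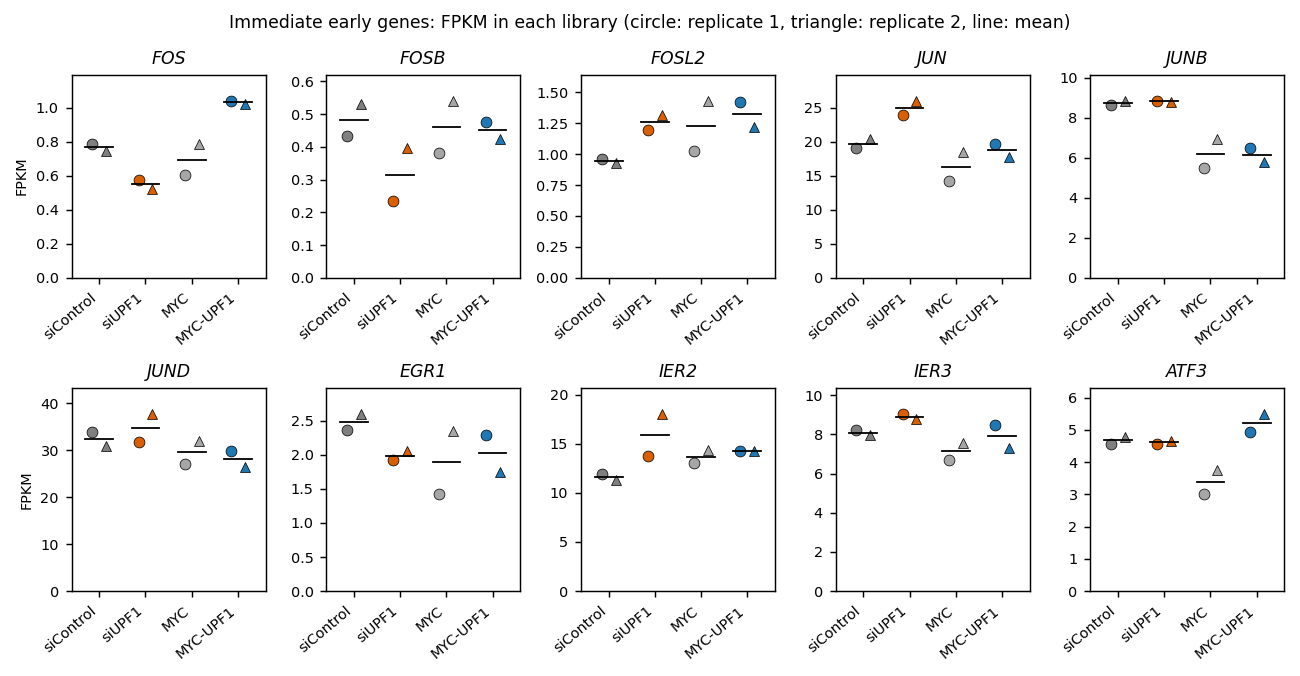
FPKM of each of the 10 immediate early genes (y axis, linear, from 0) in the 4 groups (x axis), with a circle for replicate 1, a triangle for replicate 2 and a line for the group mean. FOS and ATF3 are highest in both MYC-UPF1 libraries, JUN is highest in both siUPF1 libraries, and JUNB is lower in all 4 vector libraries than in all 4 siRNA libraries.

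After UPF1 depletion, JUN and IER2 rose and no member fell. They make up 2 of the 9 tested members, where 16.0% of the 13535 genes tested rose and 5.51% fell. None of the members was among the 0.0369% of genes, 5 in number, that passed an adjusted p of 0.05 in limma. Both siUPF1 libraries lay above both controls for 4 members (FOSL2, JUN, IER2 and IER3) and below both for 3 (FOS, FOSB and EGR1). Across all genes tested these shares were 37.5% and 18.5%. The median log2 fold change of the 9 members was 0.09, against 0.06 for all genes. With the GC and length correction 5 members passed, of which JUN rose and FOS, EGR1, JUNB and JUND fell, where 11.9% of all genes rose and 11.97% fell.

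After UPF1 overexpression, FOS and ATF3 rose and no member fell, where 0.619% of 13251 genes rose and 0.807% fell. The MYC-UPF1 libraries lay above both MYC libraries for FOS and ATF3 and below both for none, against 8.88% and 11.8% of all genes. The median log2 fold change of the 9 members was 0.08, against -0.01 for all genes. UPF1 was the only gene to pass the adjusted threshold in this comparison, which is 0.00755% of those tested. With the GC and length correction JUN and IER3 rose as well, where 1.69% of all genes rose and 1.68% fell.

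FOS, the textbook immediate early gene, lies on chr14:75745531-75748933. It was at 0.789 and 0.745 FPKM in siControl, 0.578 and 0.523 in siUPF1, 0.604 and 0.787 in MYC, and 1.04 and 1.02 in MYC-UPF1. FOS was thus lowest in the depleted cells and highest in the overexpressing cells, and in both experiments the treated libraries did not overlap their controls. Its level was low throughout, at 0.761 FPKM on average. After overexpression the mean was 1.49 times that of the vector control and FOS rose, with a log2 fold change of 0.26 ± 0.107 (SE, adjusted p = 1 by limma). This call was lost without MYC 1, where the log2 fold change was 0.19, without MYC-UPF1 1 (0.26) and without MYC-UPF1 2 (0.27), with the lone library assumed to vary like the others. With a pseudocount of 0.1 in place of 1 the log2 fold changes of FOS were 0.52 after overexpression and -0.42 after depletion, and the first alone passed. After depletion the mean was 0.718 times the control, and the log2 fold change of -0.19 ± 0.0986 (SE, adjusted p = 0.307 by limma) did not pass. The corrected value was -0.28 and passed. FOS also passed after depletion with quantile normalization and with no FPKM minimum.

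The relatives of FOS had other patterns. FOSB, best known from neurons, lies on chr19:45971254-45978437 and was the least abundant member. It stood at 0.434 and 0.532 FPKM in siControl, 0.235 and 0.395 in siUPF1, 0.381 and 0.54 in MYC, and 0.477 and 0.424 in MYC-UPF1. The depleted libraries were both below their controls, and the overexpressing libraries lay between theirs. At this level FOSB was tested only in the alternative with no FPKM minimum, where it passed neither after depletion nor after overexpression. FOSL2, also called FRA2, which has roles in bone and fibrosis, lies on chr2:28615725-28640184. It was at 0.958 and 0.931 FPKM in siControl, 1.2 and 1.32 in siUPF1, 1.03 and 1.43 in MYC, and 1.42 and 1.22 in MYC-UPF1. The depleted cells were at 1.33 times the control on average without overlap, but the log2 fold change of 0.21 ± 0.0976 (SE, adjusted p = 0.256 by limma) did not pass and was 0.07 after the GC and length correction. With no FPKM minimum FOSL2 did pass after depletion. After overexpression the libraries overlapped.

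JUN, the main dimer partner of FOS, lies on chr1:59246463-59249719. It was at 19.0 and 20.4 FPKM in siControl, 24.0 and 26.0 in siUPF1, 14.3 and 18.5 in MYC, and 19.7 and 17.8 in MYC-UPF1. Both siUPF1 libraries were above all the others, which spread from 14.3 to 20.4 FPKM. JUN rose after depletion to 1.27 times the control, with a log2 fold change of 0.33 ± 0.0958 (SE, adjusted p = 0.141 by limma). Without siControl 1 the value was 0.28 and did not pass, and without any other single library JUN passed. With the GC and length correction the log2 fold change was 0.17 and still passed. After overexpression the groups overlapped and the log2 fold change of 0.20 ± 0.129 (SE, adjusted p = 1 by limma) did not pass. It was 0.02 without MYC 1, 0.13 without MYC-UPF1 1 and 0.37, which passed, without MYC 2, and the corrected value of 0.25 passed.

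JUNB and JUND, which can dampen or replace JUN in AP-1 dimers, are single-exon genes on chr19:12902300-12904129 and chr19:18390504-18392432. JUNB was at 8.65 and 8.81 FPKM in siControl, 8.83 and 8.79 in siUPF1, 5.48 and 6.92 in MYC, and 6.49 and 5.77 in MYC-UPF1. JUND was the most abundant member, at 33.9 and 30.8 FPKM in siControl, 31.8 and 37.6 in siUPF1, 27.1 and 32.0 in MYC, and 29.8 and 26.5 in MYC-UPF1. Treated and control libraries overlapped for both genes in both experiments. After depletion the log2 fold changes were 0.01 for JUNB and 0.09 for JUND and neither passed, but JUNB was at -0.04 with quantile normalization and -0.03 with median centring, and after the GC and length correction JUNB was at -0.25 and JUND at -0.23 and both passed. JUND and JUNB are rich in GC, at 69.9% and 64.9% of the transcript, above 99.6% and 96.0% of the tested coding genes, and the part of base composition in their values was not tested.

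EGR1 encodes a zinc finger factor strongly induced by serum and lies on chr5:137801168-137804992. It was at 2.37 and 2.59 FPKM in siControl, 1.92 and 2.06 in siUPF1, 1.43 and 2.35 in MYC, and 2.29 and 1.75 in MYC-UPF1. The depleted libraries were both below their controls, at 0.802 times the mean, while the overexpressing libraries lay between theirs. The log2 fold change after depletion was -0.22 ± 0.0972 (SE, adjusted p = 0.249 by limma) and did not pass. It passed with quantile normalization, with median centring, and after the GC and length correction, where it was -0.36. In the corrected fit it also passed the adjusted threshold. After overexpression it was 0.08 ± 0.167 (SE, adjusted p = 1 by limma), and the MYC libraries differed more from each other than the group means did.

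IER2 and IER3 encode small immediate early proteins, of which IER3 acts in the response to stress and cell death signals. IER2 lies on chr19:13261225-13265725 and IER3 on chr6:30710976-30712324. IER2 was at 11.96 and 11.3 FPKM in siControl, 13.8 and 17.99 in siUPF1, 13.0 and 14.3 in MYC, and 14.3 in both MYC-UPF1 libraries. It rose after depletion to 1.36 times the control, with a log2 fold change of 0.41 ± 0.132 (SE, adjusted p = 0.163 by limma). The highest library was siUPF1 2, without which the log2 fold change was 0.23 and still passed. Without siControl 2 it was 0.37 and did not pass, and after the GC and length correction it was 0.16 and did not pass either. IER2 is GC-rich as well, at 63.0% of the transcript. IER3 was at 8.22 and 7.96 FPKM in siControl, 9.03 and 8.77 in siUPF1, 6.71 and 7.58 in MYC, and 8.496 and 7.33 in MYC-UPF1. Its depleted libraries were above their controls, but the log2 fold change of 0.12 ± 0.0894 (SE, adjusted p = 0.441 by limma) did not pass and was -0.04 after the GC and length correction. Its vector libraries overlapped, with a corrected log2 fold change of 0.17 that passed.

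ATF3, a leucine zipper factor induced by many stresses that can pair with JUN, lies on chr1:212782103-212794117. It was at 4.56 and 4.78 FPKM in siControl, 4.57 and 4.67 in siUPF1, 3.02 and 3.76 in MYC, and 4.94 and 5.48 in MYC-UPF1. The depleted libraries fell between their controls, and the MYC libraries were the lowest of all 8. ATF3 rose after overexpression to 1.54 times the vector control, with a log2 fold change of 0.50 ± 0.134 (SE, adjusted p = 1 by limma). It passed without each of the 4 libraries in turn, with log2 fold changes from 0.38 to 0.62. After depletion the log2 fold change was -0.01 ± 0.0908 (SE, adjusted p = 0.943 by limma). The MYC-UPF1 cells were at 5.21 ± 0.38 FPKM and the siControl cells at 4.67 ± 0.155 FPKM (SD, n = 2), so the rise was larger against the MYC control than the gap to the siRNA control.

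**Figure D2:**
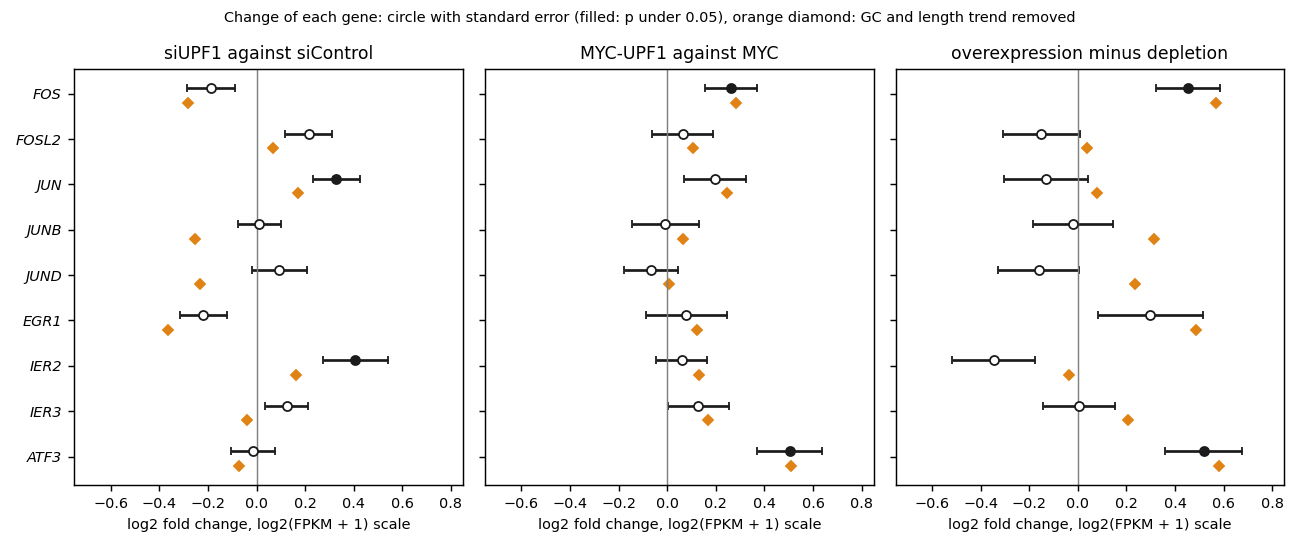
Log2 fold change on the log2(FPKM + 1) scale (x axis) of the 9 tested immediate early genes (y axis) after depletion, after overexpression, and as the difference between these effects. Circles carry limma standard errors and are filled where the unadjusted p was under 0.05, and orange diamonds give the value after the GC and length correction. The diamonds move JUNB and JUND to the left of 0 after depletion, while FOS and ATF3 stay to the right after overexpression.

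The difference between the overexpression and depletion effects was tested in a fit over all 8 libraries. FOS and ATF3 had a higher effect in overexpression than in depletion, by 0.45 ± 0.133 (SE, adjusted p = 0.206 by limma) and 0.52 ± 0.159 (SE, adjusted p = 0.211 by limma) on the log2 scale. Both passed without each of the 8 libraries in turn, and neither passed the adjusted threshold. These are 2 of the 9 members, where 3.40% of 13412 genes were higher in this test, 11.8% were lower and 0.0224% passed at an adjusted p of 0.05. After the GC and length correction, 5 members were higher, namely FOS, ATF3, EGR1, JUNB and JUND, where 8.18% of genes were higher and 8.39% lower. In that corrected fit FOS and ATF3 also passed the adjusted threshold. The difference was -0.13 ± 0.172 for JUN (SE, adjusted p = 0.73 by limma) and -0.35 ± 0.173 for IER2 (SE, adjusted p = 0.37 by limma), and neither passed. The corrected differences were 0.08 and -0.04.

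The control groups were compared as well, because they set the base of each experiment. In MYC cells JUNB was at 0.71 times and ATF3 at 0.726 times their level in siControl cells. JUNB fell by 0.44 ± 0.116 (SE, adjusted p = 0.0304 by limma) and ATF3 fell by 0.37 ± 0.112 (SE, adjusted p = 0.0464 by limma) on the log2 scale. They were the only members to change in the fit as planned, among 13412 genes of which 13.5% rose, 22.5% fell and 17.7% passed the adjusted threshold. ATF3 lost its unadjusted call without siControl 2 (log2 fold change -0.35) and without MYC 1 (-0.25). With quantile normalization 18.4% of genes rose and 17.3% fell, and JUNB and ATF3 remained the members that passed. After the GC and length correction, where 18.3% rose and 17.1% fell, JUN, JUND, EGR1 and IER3 fell as well. The agent that was delivered and every other difference between the experiments cannot be told apart.

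Within the vector experiment, a single library stood low for these genes. MYC 1 was the lowest of the 4 vector libraries for 9 of the 10 members, all but JUND, and for 24.3% of the genes tested. Its members lay below their own mean over these libraries in 10 of 10 cases, by a median of -0.15 on the log2 scale, whereas in MYC-UPF1 1 all 10 lay above it, by a median of 0.12. The share of all genes below or above their own mean in these libraries was not worked out, so these counts describe the 10 genes only. In the siRNA experiment the medians by library were between -0.04 and 0.02. Without MYC 1, FOS did not pass after overexpression and ATF3 did, with a log2 fold change of 0.38.

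**Figure D3:**
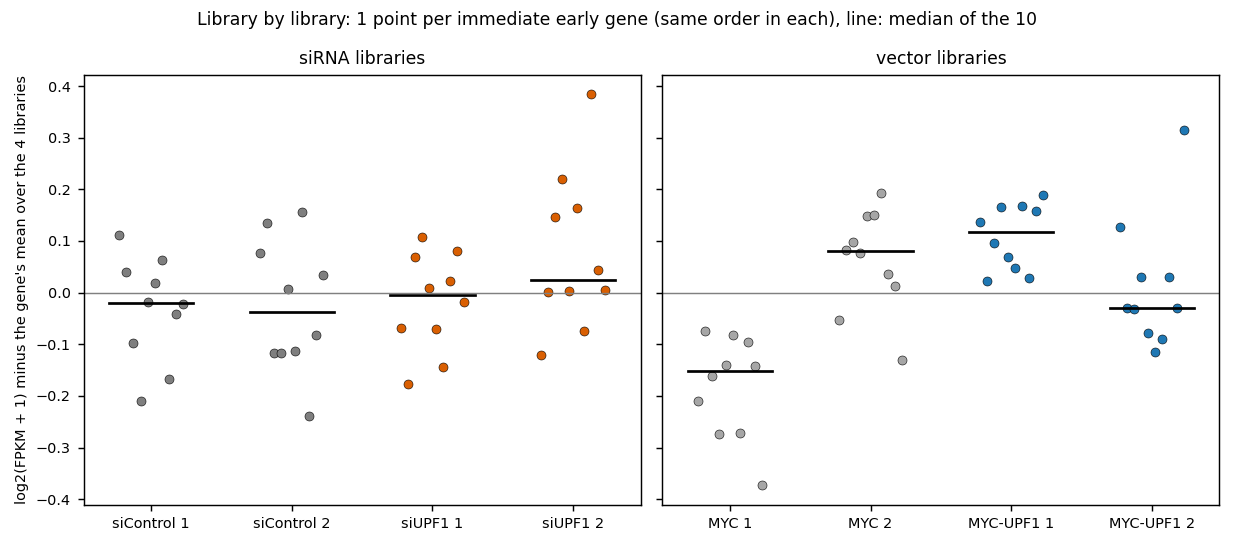
Deviation of each of the 10 immediate early genes in each library from that gene's mean over the 4 libraries of its experiment (y axis, log2(FPKM + 1) units), with the median of the 10 as a line. All 10 points of MYC 1 lie below 0 and all 10 of MYC-UPF1 1 above it.

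Ordered by mean FPKM over all libraries, JUND led at 31.2, followed by JUN at 19.96, IER2 at 13.9, IER3 at 8.01 and JUNB at 7.47. Lower were ATF3 at 4.47, EGR1 at 2.095, FOSL2 at 1.19, FOS at 0.761 and FOSB at 0.427. Over the 4 groups, FOS ran from MYC-UPF1 through siControl and MYC to siUPF1, where the middle pair overlapped. ATF3 ran in the order MYC-UPF1, siControl, siUPF1 and MYC, again with only the middle pair overlapping. For JUN, siUPF1 stood apart at the top and the other groups overlapped with their neighbours. For JUNB the siRNA groups stood above the vector groups, and the groups within each experiment overlapped. EGR1 was highest in siControl and its other groups overlapped. In JUND every group overlapped with the next.

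The genes whose levels were most like those of FOS, JUN and ATF3 over the 8 libraries were found by Pearson's correlation among 7748 genes with a mean of at least 5 FPKM. This is a description with no test, since all values share the same 8 libraries. For FOS they were GNE (r = 0.929), a sialic acid synthesis enzyme, UPF1 (r = 0.907) and TNFRSF10D (r = 0.876), a decoy death receptor. For JUN they were ELOA (r = 0.98), a transcription elongation factor, ZNF581 (r = 0.972) and GADD45B (r = 0.967), itself an immediate early gene. For ATF3 they were UIMC1 (r = 0.881), TRIB1 (r = 0.854) and RGS2 (r = 0.825), a regulator of G protein signalling. The match of FOS with UPF1 spans UPF1 levels from 20.7 to 2835 FPKM, while FOS ranged from 0.523 to 1.04 FPKM.

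A wider list of 48 immediate early genes gave a context. Of these, 43 were in the tables, and EGR2, EGR3, EGR4, DUSP2 and ARC were not. After overexpression, 7 of the 41 tested rose and none fell, where 0.619% of all genes rose and 0.807% fell, with 28 above 0 and a median log2 fold change of 0.05 against -0.01 for all genes. Without MYC 1, 3 of the list rose and 2 fell, against 0.897% and 4.96% of all genes. With another library left out between 5 and 8 rose and none fell, where between 0.784% and 1.33% of all genes rose. No gene of the list passed the adjusted threshold. DUSP1, a phosphatase that switches off MAP kinases, was at 6.23 and 6.83 FPKM in MYC and 12.2 and 11.0 in MYC-UPF1, a rise of 0.75 ± 0.117 on the log2 scale (SE, adjusted p = 0.194 by limma). DUSP1 was singled out by the study on these same libraries, so it is not independent evidence of the list's direction. TRIB1, a pseudokinase that directs protein degradation, was at 4.83 and 5.42 FPKM in MYC and 9.45 and 8.10 in MYC-UPF1, a rise of 0.67 ± 0.127 (SE, adjusted p = 0.562 by limma). Both genes passed without each library in turn.

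KLF6 and KLF4, a pair of Krüppel-like zinc finger factors, rose by log2 fold changes of 0.40 and 0.39, but KLF6 did not pass without MYC-UPF1 2 (0.31) nor KLF4 without MYC 1 (0.29). GADD45B, a stress sensor, rose by 0.45, was at 0.69 without MYC 2, and without MYC 1 was at 0.21 and did not pass. PLK2, a kinase of the cell cycle, rose by 0.37 and did not pass without MYC 1 (0.22) or without MYC-UPF1 1 (0.32). After the GC and length correction, 10 of the list rose and none fell, where 1.69% of all genes rose and 1.68% fell.

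After depletion 7 of 42 tested genes of the list rose and 5 fell, with a median of -0.04 against 0.06 for all genes. Across all genes 16.0% rose and 5.51% fell. With the GC and length correction 1 of the list rose and 13 fell, against 11.9% and 11.97% of all genes. Without siControl 1, 1 of the list rose and 4 fell, against 7.01% and 3.65% of all genes, and without siControl 2, 1 rose and 1 fell, against 9.93% and 2.72%. Without siUPF1 1, 7 rose and 14 fell, against 27.2% and 16.5%, and without siUPF1 2, 5 rose and 4 fell, against 16.5% and 5.28%. Quantile normalization gave 2 that rose and 9 that fell, against 10.5% and 10.4% of all genes. CXCL8, a chemokine, was at 18.1 and 21.7 FPKM in siControl and 14.3 and 11.96 in siUPF1. It fell by 0.56 ± 0.128 on the log2 scale (SE, adjusted p = 0.0948 by limma) and passed without each library in turn and with the correction, where the log2 fold change was -0.31. DUSP1 was at 10.55 and 10.8 FPKM in siControl and 8.39 and 7.49 in siUPF1, a change of -0.39 ± 0.0966 (SE, adjusted p = 0.112 by limma) that did not pass without siControl 2 (-0.37).

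The MYC gene, which encodes the growth-promoting factor itself, fell by 0.40 after depletion, but did not pass without siControl 2 (-0.36). SGK1, a kinase of salt and stress responses, fell by 0.44, was at -0.67 without siUPF1 1, and did not pass without siUPF1 2 (-0.20) or siControl 2 (-0.38). GADD45B rose by 0.36 and PPP1R15A, which restores translation after stress, rose by 0.34. GADD45B did not pass without siControl 1 (0.28), nor PPP1R15A without siControl 1 (0.35) or siControl 2 (0.34). The corrected value was 0.21 for GADD45B, which passed, and 0.15 for PPP1R15A, which did not. PPP1R15A also rose after overexpression, by 0.31, was at 0.47 without MYC 2, and did not pass without MYC 1 (0.15) or MYC-UPF1 1 (0.22). GADD45B and PPP1R15A thus rose in both experiments, while DUSP1 fell after depletion and rose after overexpression.

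**Figure D4:**
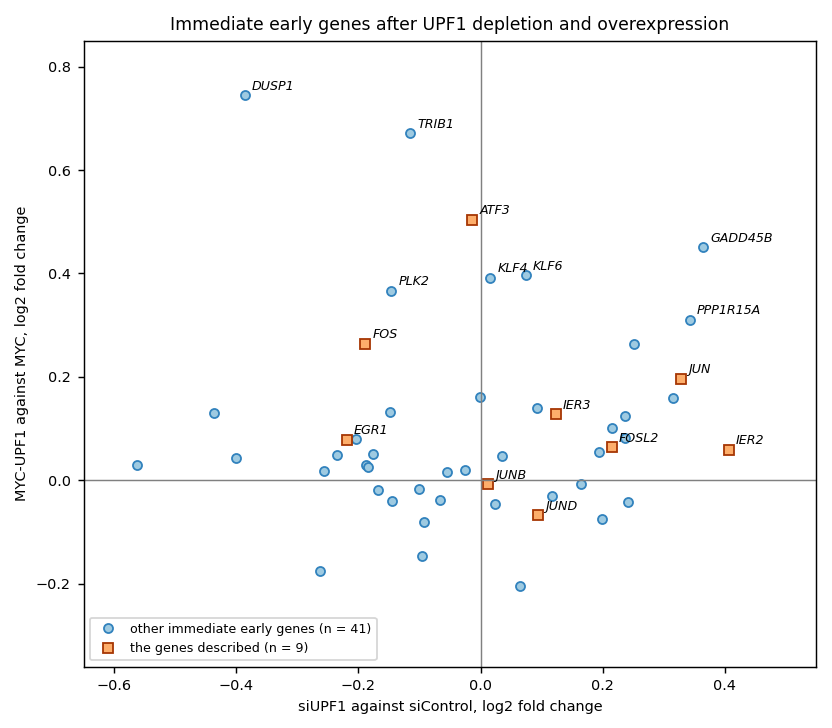
Log2 fold change after depletion (x axis) against that after overexpression (y axis) for 9 of the 10 immediate early genes (squares) and for 41 further immediate early genes (circles), each from its own pair of groups. Named circles are genes that rose after overexpression, and DUSP1 (-0.39 and 0.75) and TRIB1 (-0.11 and 0.67) lie farthest up.

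In the comparison of the control groups, 4 of 42 genes of this list rose and 22 fell in MYC cells. Over both directions, 20 of the 42 passed the adjusted threshold. Across all genes 13.5% rose, 22.5% fell and 17.7% passed after adjustment. The median log2 fold change was -0.27 against -0.06 for all genes. With quantile normalization 4 rose and 19 fell, against 18.4% and 17.3% of all genes. DUSP1, TRIB1, KLF6, KLF4, GADD45B and PLK2 were each lower in both MYC libraries than in both siControl libraries, as were 41.2% of all genes, and since these genes were named for their rise over the same MYC libraries this is a description only. PPP1R15A overlapped (13.0 and 16.5 FPKM in MYC, 16.6 and 16.4 in siControl). CXCL8, named for its fall after depletion, was at 2.235 and 2.536 FPKM in MYC against 18.07 and 21.67 in siControl. The ratio of these means was 0.12, so its effects in the siRNA and vector experiments start from very unlike levels. Of the other genes named for such a fall, SGK1 was lower in both MYC libraries (ratio 0.823) and the MYC gene overlapped. In MYC-UPF1 cells DUSP1 (11.6 FPKM on average against 10.7 in siControl), TRIB1 (8.78 against 7.40) and KLF4 (1.37 against 1.33) were above the siControl mean. KLF6 (8.44 against 9.23), GADD45B (6.93 against 8.41) and PLK2 (7.39 against 7.93) were below it, and this pair of groups was not tested.

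Other leucine zipper factors, of which only some are known to pair with FOS or JUN proteins, were counted from a list of 22. Of these, 21 were in the tables. After depletion 8 of 20 tested rose and 1 fell, against 16.0% and 5.51% of all genes. After overexpression none of 19 passed, where 0.619% of all genes rose and 0.807% fell. Without siControl 1, 2 rose and none fell, against 7.01% and 3.65% of all genes, and without siControl 2, 4 rose and none fell, against 9.93% and 2.72%. Without siUPF1 1, 10 rose and 4 fell (27.2% and 16.5% of all genes), and without siUPF1 2, 5 rose and none fell (16.5% and 5.28%). ATF4, the main factor of the integrated stress response and the most abundant of the list, was at 203.1 and 212.8 FPKM in siControl and 248.8 and 273.1 in siUPF1, a rise of 0.32 ± 0.0969 on the log2 scale (SE, adjusted p = 0.144 by limma). It did not pass without siControl 1 (0.29) or without siControl 2 (0.36). BATF3, which pairs with JUN proteins, was at 1.02 and 1.17 FPKM in siControl and 1.65 and 2.03 in siUPF1, rose by 0.44 ± 0.111 (SE, adjusted p = 0.113 by limma), and passed without each library in turn. JDP2, a JUN partner that represses AP-1, rose by 0.38, and without siControl 1 was at 0.25 and did not pass. NFE2L1, an activator of proteasome genes, rose by 0.41, was at 0.27 without siUPF1 2, and did not pass without siControl 1 (0.37). With the GC and length correction these 4 genes still passed, with BATF3 and NFE2L1 both at 0.26. CREB3 and ATF5, both tied to stress responses, rose by 0.33 and 0.28. CREB3 did not pass without siControl 1 (0.32) or siControl 2 (0.33), nor ATF5 without siControl 1 (0.22), siControl 2 (0.34) or siUPF1 2 (0.20). The corrected values were 0.21 for CREB3, which passed, and 0.09 for ATF5, which did not.

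Factors that drive or restrain immediate early transcription were listed as 14 genes, all in the tables. After depletion 2 of 14 rose and 1 fell, close to the 16.0% and 5.51% of all genes. After overexpression none of the 14 passed, where 0.619% of all genes rose and 0.807% fell. With a single library left out, the fewest rose without siControl 1 or siControl 2, where the share of all genes that rose was also smallest. The most rose without siUPF1 1, where that share was largest and as many of the list fell as rose. With the GC and length correction none rose and 2 fell, against 11.9% and 11.97% of all genes. SRF, which binds CArG boxes like those printed for EGR1, was at 6.30 and 6.48 FPKM in siControl and 7.42 and 8.05 in siUPF1, a rise of 0.24 that was 0.01 after the GC and length correction. NAB2, which holds back EGR1, rose by 0.27 and was at 0.05 after that correction. Neither passed without siControl 1, siControl 2 or siUPF1 2, where SRF was between 0.19 and 0.26 and NAB2 between 0.19 and 0.31. ELK4, a partner of SRF, was at 3.97 and 4.16 FPKM in siControl and 3.19 and 2.63 in siUPF1, fell by 0.37, and did not pass without siControl 2 (-0.35). None of 8 proteins that bind AU-rich elements passed in either experiment in the fit as planned. Of all genes 16.0% rose and 5.51% fell after depletion, and 0.619% rose and 0.807% fell after overexpression. ZFP36, a member of this list, was at -0.17 after depletion, and at -0.32 with the GC and length correction, which passed. The summed level of the 8 stayed between 299.8 and 346.7 FPKM in the 8 libraries.

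Known targets of AP-1 were counted from a list of 20, of which 13 were in the tables. The matrix metalloproteinases MMP1, MMP3, MMP7, MMP9 and MMP10 were not among these, nor were TIMP1 and IL6. After depletion 4 of 12 tested rose and 4 fell, against 16.0% and 5.51% of all genes. After overexpression none of the 12 passed, where 0.619% of all genes rose and 0.807% fell. With a single library left out, the fewest rose without siControl 1 and the most without siUPF1 1. The share of all genes that rose was also smallest and largest there. The most fell without siUPF1 2. The correction gave 1 that rose and 5 that fell, against 11.9% and 11.97% of all genes. After overexpression 3 fell without MYC 1, where 4.96% of all genes did. CCND1, the cyclin that starts the cell cycle, was at 70.96 and 72.4 FPKM in siControl and 90.7 and 100.2 in siUPF1, rose by 0.41 ± 0.0958 (SE, adjusted p = 0.101 by limma) and passed without each library in turn. SPP1, the secreted protein osteopontin, was at 2.80 and 2.59 FPKM in siControl and 1.76 and 1.77 in siUPF1, fell by 0.42 ± 0.0948 (SE, adjusted p = 0.0946 by limma) and also passed without each library. The urokinase PLAU fell by 0.39, and without siUPF1 1 was at -0.26 and did not pass, while its receptor PLAUR rose by 0.36 and did not pass without siControl 1 (0.32) or siUPF1 2 (0.25), nor with the GC and length correction (0.22). TGFB1, a growth-inhibiting cytokine, rose by 0.31, did not pass without siControl 1 (0.23), and was at 0.06 after the GC and length correction.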

How the data were processed

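For 8 libraries of Huh7 total RNA, a stranded mRNA kit and paired-end reads were used. The authors trimmed the reads, aligned them to hg19 with HISAT2 2.1.0 and assembled transcripts with StringTie 1.3.4d. The values they deposited are FPKM, 1 for each gene in each library. The submitters' processing notes also list Trimmomatic 0.38, FastQC 0.11.7, CASAVA and the build mm10. How genes were chosen for the tables is not given in the sources used here. Single-library files and whole-series tables held the same values, 0 columns lacked a sample, and the smallest value was 1e-06 FPKM. Read depth is not known, so no counting intervals are given.

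Groups were taken from the labels. limma 3.58.1 (R 4.3.3; lmFit, eBayes with trend) was run on log2(FPKM + 1), with a minimum mean of 0.5 FPKM, on the 4 libraries of each comparison, and on all 8 for the difference and for the control groups. The procedure was tested on simulated data. The 10 genes and all lists were chosen with earlier results of these data known, and the lists overlap in a few genes. Named were all members, UPF1, DUSP1, up to 6 genes per list and comparison with the largest change among those that passed without overlap of the groups, and the 3 genes most like FOS, JUN and ATF3. Alternatives were a pseudocount of 0.1, no FPKM minimum, a minimum of 5, quantile normalization, median centring, the replicate number as a block, the GC and length correction (loess, span 0.5, GENCODE 44 on GRCh37, 15263 genes matched), eBayes without trend, a joint fit, and each library left out. A crossed block was added after the data were seen. Tables and figures were made with Python 3.11.15, pandas 2.3.3, numpy 2.4.6 and matplotlib 3.10.9. Growth, protein and reporter assays were not analysed here. The result of 1 gene of the hepatocyte list is not reported here.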

Additional observations from a re-analysis of the deposited data

Results flagged for a closer look

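For 2 of the 10 genes the effects of overexpression and depletion differed in the fit over all 8 libraries. The overexpression effect minus the depletion effect was 0.45 on the log2 scale for FOS and 0.52 for ATF3, and both passed with each library left out. Among the other immediate early genes it was 1.13 for DUSP1, 0.79 for TRIB1, 0.59 for CXCL8, 0.57 for SGK1, 0.51 for PLK2, 0.44 for the MYC gene, 0.38 for KLF4 and 0.32 for KLF6. DUSP1 and TRIB1 passed with each library left out. CXCL8 did not pass without siControl 2, siUPF1 2, MYC 1 or MYC-UPF1 1, where it was between 0.38 and 0.53, nor with the GC and length correction (0.28). SGK1 did not pass without siControl 2 (0.51) and was at 0.33 without siUPF1 2. PLK2 and MYC did not pass without siControl 2, siUPF1 2, MYC 1 or MYC-UPF1 1, where PLK2 was between 0.37 and 0.47 and MYC between 0.33 and 0.40. KLF4 did not pass without siControl 1, siControl 2, siUPF1 1, MYC 1 or MYC-UPF1 1, where it was between 0.27 and 0.39, and was at 0.57 with the correction. KLF6 passed only without siUPF1 2 or MYC-UPF1 1, and was between 0.24 and 0.37 without each other library.

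Among the other leucine zipper factors the difference was -0.50 for NFE2L1, -0.40 for ATF5 and -0.27 for ATF4. NFE2L1 passed with each library left out, ATF5 did not without siControl 1, siUPF1 2 or MYC 2, where it was between -0.34 and -0.32, and ATF4 passed only without siUPF1 1, and was between -0.30 and -0.20 without each other library. With the correction NFE2L1 was at -0.29 and passed, while ATF5 and ATF4 were both at -0.15 and did not. Among AP-1 targets it was -0.46 for CCND1 and -0.47 for PLAUR, which passed with each library left out, and 0.36 for SPP1, which passed only without MYC 2 or MYC-UPF1 2 and was between 0.24 and 0.40 without each other library. With the correction PLAUR was at -0.30 and passed, and SPP1 was at 0.24 and did not. The hepatocyte marker KRT18 differed by -0.46 and did not pass without MYC 2 (-0.34) or MYC-UPF1 2 (-0.35), and was at -0.25 with the correction, which passed. All of these passed before adjustment, where 3.40% of genes were higher and 11.8% lower, and none of them passed an adjusted p of 0.05 in limma.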

How the results depend on the processing

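Counts of the 10 genes that passed, 2 in each comparison as planned, moved with the processing, and so did the share of all genes that passed. After depletion, where 21.5% of all genes passed as planned, 4 passed with no FPKM minimum (17.9% of all genes) and with quantile normalization (20.9%), and 5 with the GC and length correction (23.8%), also with the replicate block (22.4%). With a library left out the number was 1 without siControl 1 (10.7%) or siControl 2 (12.7%), 2 without siUPF1 1 (43.7%) and 3 without siUPF1 2 (21.7%). After overexpression (1.43% as planned) it was 0 with a minimum of 5 FPKM (0.645%), which leaves FOS and ATF3 untested, 1 with the replicate block (1.28%), 4 with the correction (3.37%), 1 without MYC 1 (5.86%), MYC-UPF1 1 (3.56%) or MYC-UPF1 2 (1.73%) and 3 without MYC 2 (1.63%). For the difference between the effects (15.2% as planned) it was 0 with a minimum of 5 FPKM (16.5%), 5 with the correction (16.6%), also with the block (13.3%), and 2 to 3 with a library left out (7.94% to 25.2%). Between the control groups (35.99% as planned) it was 1 with a minimum of 5 FPKM (38.95%), 4 with median centring (35.2%), 6 with the correction (35.5%), 5 with correction and block (31.3%), and 1 to 4 with a library left out, where it was 1 without siControl 2 (22.5%) and 4 without MYC 2 (22.0%). The cause was not tested.

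Genes passing an adjusted p of 0.05 moved more. With the correction they took in EGR1 after depletion, and FOS and ATF3 for the difference between the effects. After depletion there were 5, against 0 with no minimum, quantile normalization, median centring or the block, 316 with a minimum of 5 FPKM, 425 with the correction, 259 with correction and block, 377 in the joint fit, and 121 to 4546 with a library left out, the most without siUPF1 1. After overexpression there was 1, against 2 with a pseudocount of 0.1 or the correction, 20 with the block and 5 to 63 with a library left out. For the difference there were 3, against 1 with no minimum, 11 with a minimum of 5 FPKM, 8 with the block, 201 with the correction, 7 with correction and block, and 1 to 416 with a library left out. Between the control groups there were 2372, against 1562 with no minimum, 1209 with the block, and 301 to 3147 with a library left out.

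Several small log2 fold changes reversed. With the GC and length correction, with or without the block, depletion gave -0.252 for JUNB, -0.234 for JUND and -0.0389 for IER3, overexpression gave 0.0631 for JUNB and 0.00626 for JUND, and the difference was 0.0375 for FOSL2, 0.0768 for JUN, 0.314 for JUNB and 0.236 for JUND. JUNB was at -0.0398, 0.00495 and 0.0458 in these comparisons with quantile normalization, and at -0.0276 after depletion and 0.0285 for the difference with median centring, where FOS in MYC against siControl was 0.0214. With a library left out, depletion ranged from -0.000251 to 0.0236 for JUNB, -0.0244 to 0.212 for JUND and -0.0413 to 0.0144 for ATF3. Overexpression ranged from -0.0668 to 0.195 for FOSL2, -0.153 to 0.137 for JUNB, -0.184 to 0.0496 for JUND, -0.154 to 0.312 for EGR1 and -0.00617 to 0.125 for IER2. The difference ranged from -0.307 to 0.0435 for JUN, -0.164 to 0.125 for JUNB and -0.0898 to 0.0993 for IER3, and FOS in MYC against siControl from -0.14 to 0.0163. None of these passed in the fit as planned.

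Same-numbered libraries did not deviate together (correlation -0.129 in the siRNA and -0.569 in the vector experiment). In the vector experiment the opposite-numbered libraries varied together. The labels state no pairing, and these correlations cannot show whether libraries were prepared in pairs. With a crossed block 2, 3, 3 and 4 members passed in the 4 comparisons in the order above, where 22.9%, 9.26%, 23.8% and 45.2% of all genes did, and 90, 32, 18 and 4300 genes passed the adjusted threshold. Read depth is unknown, which limits FOS, FOSB and FOSL2 most, with means of at most 1.19 FPKM.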
